A study of Mus musculus with 6 samples.

Results

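The potassium, calcium and sodium channel genes described here are those whose symbol begins with Kcn, Cacn, or Scn followed by a digit, and that reached 0.5 FPKM (fragments per kilobase of transcript, scaled to the depth of the library) in at least 3 of 6 mouse duodenum libraries. Of 23699 gene models, 135 carried such a symbol and 37 of them reached the minimum. Within the family the minimum used the level only, but the family itself was chosen with earlier results of these data known. Of the 37 genes, 27 reached the minimum in all 6 libraries, 4 in 5 libraries, 4 in 4 libraries and 2 in 3 libraries (Scn2b and Kcnmb4). Just outside the minimum, Kcna3, Cacna1c and Scn8a each reached it in 1 mutant and 1 control. Kcna3 had 0.706 FPKM in mutant 3 and 0.914 FPKM in control 2. In mutant 3 and control 3, Cacna1c had 0.764 and 0.744 FPKM, and Scn8a 0.546 and 0.508 FPKM.

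Libraries from 3 mutants and 3 controls were compared, all from the first 2 cm of duodenum after the stomach of 6-week-old mice on a mixed background. Mutants carried the genotype Nkx2.2flox/flox; Villin-Cre/+, and mutant 3 carried Rosa26Tomato/+ in addition. Controls were Nkx2.2flox/+, so they too had a floxed allele but no Cre was named for them. Villin-Cre acts in the intestinal epithelium, so neurons, muscle and other non-epithelial cells of the whole-tissue RNA are not its target. Nkx2.2 is a homeodomain transcription factor of pancreatic islet and intestinal endocrine cells.

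The rebuilt depth was 21.0 to 26.3 M fragments per library, and the fragments behind an FPKM value grow with the length of the transcript. Nkx2-2 itself had 1.10, 0.736 and 0.221 FPKM in mutants 1, 2 and 3, against 1.13, 1.32 and 0.779 FPKM in controls 1, 2 and 3. The groups overlapped, while each mutant lay below the control of the same number; the limma adjusted p was 0.999, or 0.720 with the block. As a check of the tissue, absorptive enterocyte markers summed to 21992 to 46229 FPKM in mutants and 17928 to 37509 FPKM in controls, while Brunner gland and stomach markers varied widely, from 106 to 3706 FPKM in mutants and 2128 to 6984 FPKM in controls. Nothing in the labels says that each library came from a separate animal, although the added genotype of mutant 3 sets it apart from mutants 1 and 2. The p-values therefore speak of the spread among these 6 samples, and that spread may be technical in part. In whole-tissue RNA, fewer cells of a type and less RNA per cell cannot be told apart.

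Potassium channels let potassium leave the cell and hold the membrane negative. In gut epithelium they recycle potassium and keep the driving force for chloride secretion, and in smooth muscle, neurons and endocrine cells they end electrical activity. Voltage-gated calcium channels couple depolarisation to contraction and to the release of hormones and transmitters, and voltage-gated sodium channels carry the upstroke of the action potential. Pore-forming subunits are joined by auxiliary subunits that set their gating and their number at the membrane.

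The 37 genes spanned a wide range of levels. Over the 6 libraries, 5 genes averaged at least 10 FPKM, 7 lay between 2 and 10 FPKM, 10 between 1 and 2 FPKM and 15 below 1 FPKM. Their summed level was 230, 219 and 239 FPKM in mutants 1, 2 and 3, and 213, 234 and 221 FPKM in controls 1, 2 and 3, and the groups overlapped. Kcne3 alone made up 32.2 to 33.6% of the sum in mutants and 31.2 to 34.1% in controls. The 6 genes with the highest levels held 74.7 to 79.8% of the sum across all 6 libraries.

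**Figure D1:**
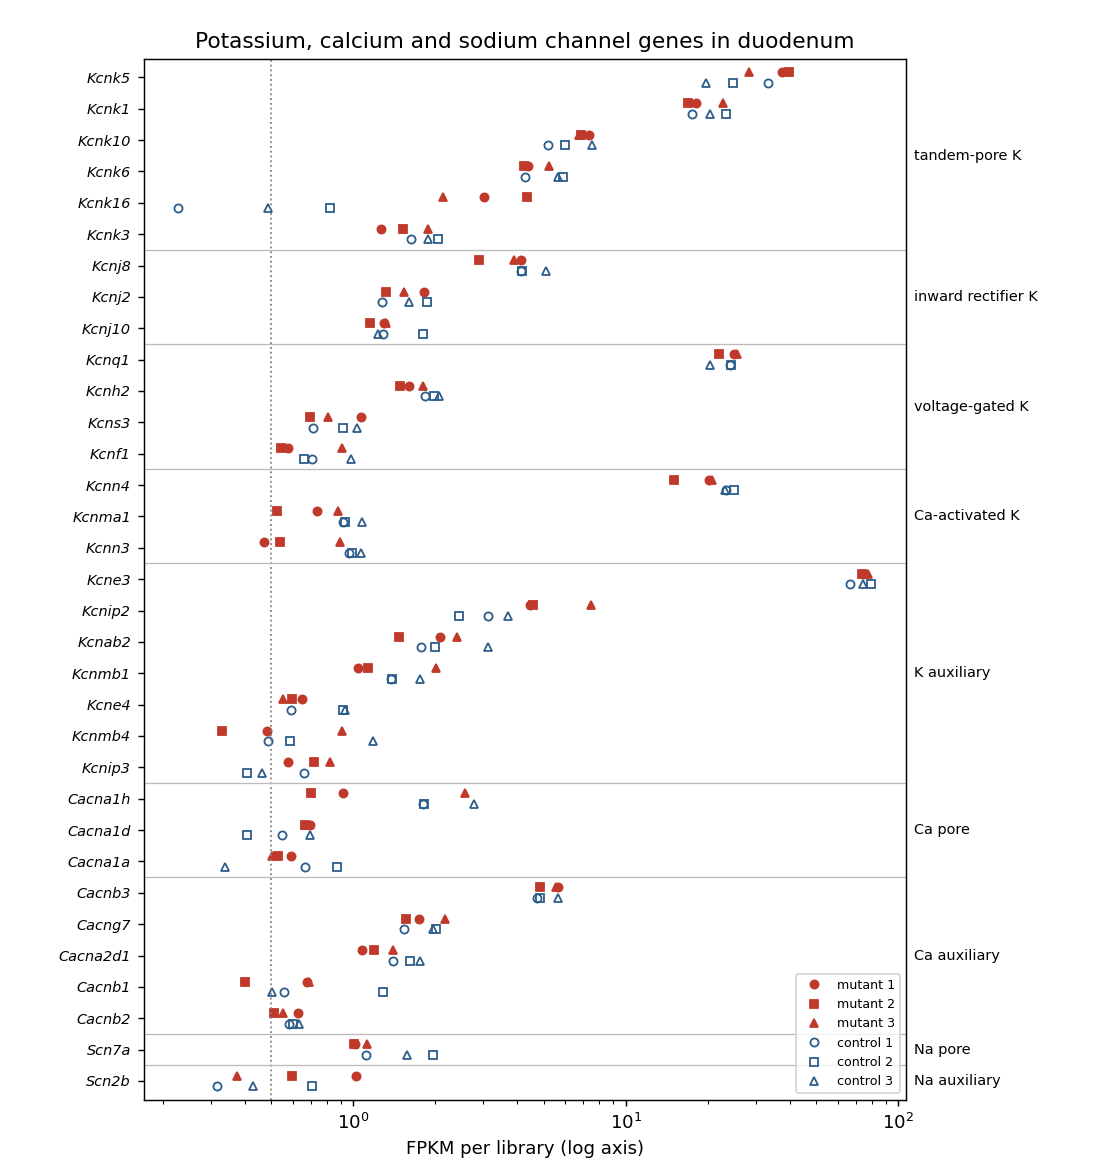
Level of 33 channel genes in FPKM on a log axis, grouped by role, with filled red symbols for the 3 mutant libraries and open blue symbols for the 3 control libraries. The dotted line marks the minimum of 0.5 FPKM; Kcne3 lies highest, and Kcnk16 is the gene whose 3 mutant points stand farthest from its control points.

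None of the 37 genes passed an adjusted p of 0.05 in the limma fit over 13596 genes, in which 0.0221% of all genes passed. At an unadjusted p under 0.05 there were 4 channel genes, Kcnk16 and Kcnip2 higher and Kcnn4 and Kcnn3 lower in mutants, while the share over all genes was 3.43% (1.8% higher and 1.63% lower). With the replicate number as a block, 1 channel gene passed, Kcnk16, beside 0.162% of all genes. Counted without a test, 9 of the 37 genes (24.3%) had mutant and control values that did not overlap, against 7.75% of all genes tested. Of these, 2 were higher (5.41%, against 4.05% of all genes) and 7 were lower in mutants (18.9%, against 3.71%). Without mutant 3 the count was 16 of 36 channel genes tested, against 32.1% of all genes, and without control 1 it was 14 of 37, against 16.2%.

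The differences were mostly small. The median log2 change, mutant minus control, of FPKM + 0.5 was -0.11 over the 37 genes and -0.02 over all genes tested. It was negative in 25 genes (67.6%) and positive in 12, whereas 55.8% of all genes tested were negative. The size of the log2 change was below 0.5 in 34 of the 37 genes and below 0.25 in 26.

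**Figure D2:**
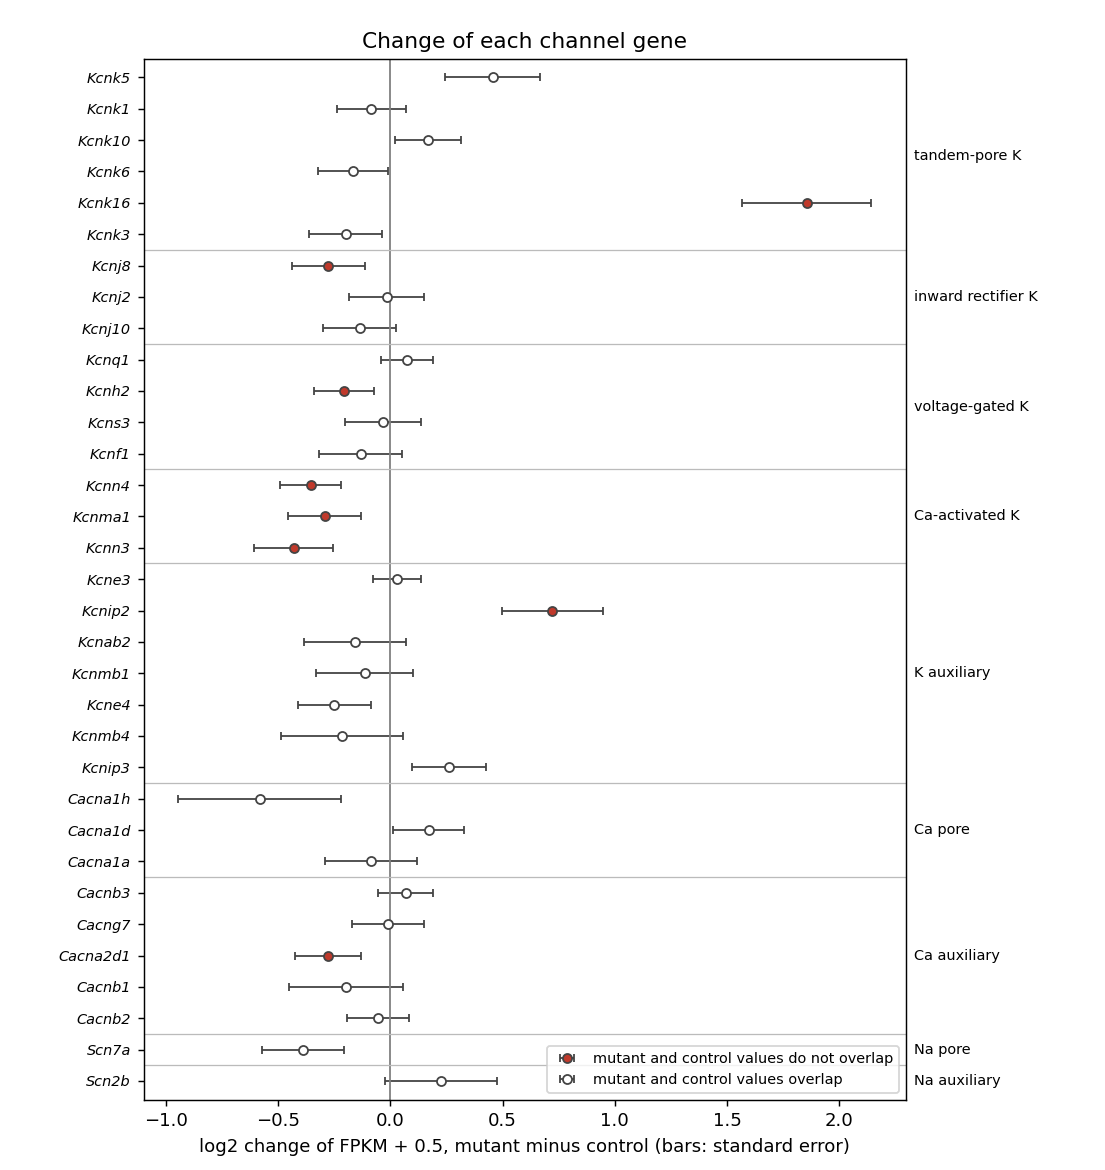
Log2 change of FPKM + 0.5, mutant minus control, of 33 channel genes with its standard error from limma, grouped by role; filled points mark the 8 of them whose mutant and control values do not overlap. Kcnk16 at 1.85 and Kcnip2 at 0.72 lie farthest to the right, and the 3 calcium-activated potassium channels all lie left of 0.

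Tandem-pore potassium channels carry the leak current that sets the resting potential, and 6 of their 14 gene models reached the minimum. Kcnk16 encodes TALK-1, a leak channel activated by alkaline pH outside the cell and known from pancreatic islets. Kcnk5 encodes TASK-2, which is likewise activated by alkaline pH and is found in transporting epithelia. Both lie on the minus strand of chromosome 14, 81.0 kb apart, with Kcnk16 at chr14:21081978-21088384 and Kcnk5 at chr14:20959280-21001004 (mm9). Their promoter windows from RefSeq (GRCm38.p6), 250 bases before to 50 after the annotated start, are printed 5′ to 3′ on the minus strand because Kcnk16 gave the largest difference of the 37 genes and Kcnk5 is its neighbour of the same family. Kcnk16's window is chr14:20269220-20269519 and Kcnk5's is chr14:20181733-20182032. Capitals mark CAAGTG on either strand, the core motif bound by NK2 homeodomain factors:
Kcnk16: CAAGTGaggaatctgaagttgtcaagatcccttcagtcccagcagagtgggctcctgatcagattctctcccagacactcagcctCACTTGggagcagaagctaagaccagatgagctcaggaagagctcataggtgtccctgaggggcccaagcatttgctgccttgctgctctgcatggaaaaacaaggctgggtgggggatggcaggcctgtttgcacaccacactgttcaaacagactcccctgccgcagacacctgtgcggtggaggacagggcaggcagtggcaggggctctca
Kcnk5: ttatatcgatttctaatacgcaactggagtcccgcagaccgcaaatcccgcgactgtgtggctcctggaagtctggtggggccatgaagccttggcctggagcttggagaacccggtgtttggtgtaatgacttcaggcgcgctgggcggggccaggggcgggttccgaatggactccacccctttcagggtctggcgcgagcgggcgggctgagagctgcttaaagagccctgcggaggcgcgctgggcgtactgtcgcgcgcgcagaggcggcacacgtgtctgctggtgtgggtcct

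The motif was chosen after the sequences had been seen. Kcnk16's window held 1 forward and 1 reverse match that do not overlap, and Kcnk5's window held 0. Of 27025 genes in the promoter table, 15.4% had at least 1 match and 1.41% at least 2. Of the 37 channel genes, 28 had an entry, 5 of them with at least 1 match and 1, Kcnk16, with at least 2. A match is a string of letters and not a binding site. The RefSeq start of Kcnk16 is not the same base as the end of the files' gene model.

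Kcnk16 had 3.02, 4.33 and 2.14 FPKM in mutants 1, 2 and 3, against 0.228, 0.823 and 0.488 FPKM in controls 1, 2 and 3. All 3 mutants lay above all 3 controls, mutant 2 highest and mutant 3 lowest among the mutants. The mean was 3.16 ± 1.10 FPKM in mutants and 0.513 ± 0.299 FPKM in controls (SD, n = 3 each), a ratio of 6.17. In rebuilt fragments this is 43, 69 and 30 in mutants and 4, 12 and 7 in controls, all on a single gene model of 879 bases with 1 isoform. Kcnk16 reached the minimum in all 3 mutants and 1 control.

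The limma log2 change of Kcnk16 was 1.85 ± 0.29 (SE; 95% interval 1.18 to 2.53), higher in 3 of 3 mutants, with an unadjusted p of 0.000298 and an adjusted p of 0.289. The limma fit with the replicate block gave an adjusted p of 0.00616, library quality weights gave 0.0413, and the fit without mutant 3 gave 0.0345. In the limma fit over isoforms, where the same values stand for its 1 isoform, the adjusted p with the block was 0.432. Among all genes, 0.0662%, 0.0736% and 0.379% were called higher in those 3 fits. Leaving out each library in turn gave limma log2 changes of 1.63 to 2.07 with adjusted p of 0.0345 to 0.855. Over all 16 settings the adjusted p ran from 0.00616 to 0.855. The limma fit without control 2 gave the 0.855. In that fit, and with the minimum raised to 1 FPKM, Kcnk16 entered only through the mutants, so no conclusion is drawn from those fits. The authors' deposited table gives Kcnk16 mean normalized counts of 62.7 in mutants and 11.6 in controls, a log2 fold change of 2.43 and an adjusted p of 0.158.

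Kcnk5, the potassium channel pore gene with the highest level here, had 37.4, 39.9 and 28.4 FPKM in mutants 1, 2 and 3, against 33.2, 24.7 and 19.7 FPKM in controls 1, 2 and 3. Mutant 3 lay below control 1, so the groups overlapped. Its limma log2 change was 0.46 ± 0.21 (SE; 95% interval -0.04 to 0.95), with an adjusted p of 0.999. Within 500 kb of Kcnk16 lay 25 other gene models, 20 of them tested and none with a limma adjusted p below 0.999. The nearest was Nudt13 at 25.5 kb, with 5.69, 5.74 and 5.98 FPKM in mutants and 4.91, 5.10 and 5.36 FPKM in controls. Those values did not overlap, with a log2 change of 0.17.

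The other tandem-pore channels overlapped between groups. Kcnk1 (TWIK-1, a weakly conducting leak channel) averaged 19.3 FPKM in mutants and 20.5 FPKM in controls, with a log2 change of -0.09 ± 0.15 (SE). Kcnk10 (TREK-2, opened by stretch and lipids) had a log2 change of 0.17, Kcnk6 (TWIK-2) of -0.16 and Kcnk3 (TASK-1, closed by acid outside the cell) of -0.20. Summed over the class, the level was 70.8 ± 3.33 FPKM in mutants and 60.2 ± 3.99 FPKM in controls (SD, n = 3 each), of which Kcnk5 and Kcnk1 made up most.

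**Figure D3:**
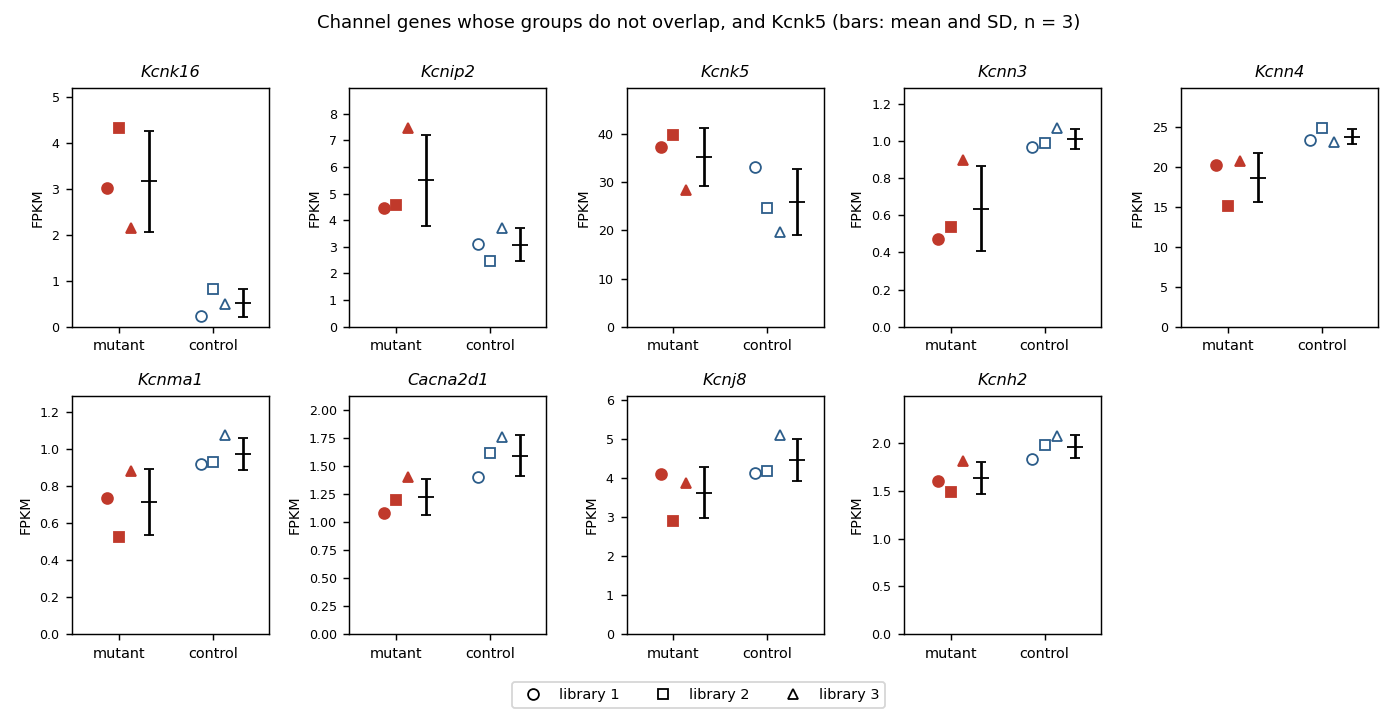
FPKM per library of 8 channel genes whose groups do not overlap, and of Kcnk5, with mutants left and controls right, 1 symbol per library number and bars for mean and SD (n = 3). Kcnk16 mutants lie at 2.14 to 4.33 FPKM and controls at 0.228 to 0.823 FPKM; in Kcnn3, Kcnma1 and Cacna2d1 mutant 3 is the mutant closest to the controls.

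Calcium-activated potassium channels open when intracellular calcium rises, and 3 of their 8 gene models (sodium-activated relatives included) reached the minimum. All 3 had lower values in every mutant than in any control, as did 3.71% of all genes tested, and none passed the adjusted threshold. Kcnn4, the intermediate-conductance channel of the basolateral membrane of secreting epithelium and of immune cells, lies at chr7:25155282-25170231 (mm9). Kcnn4 had 20.2, 15.1 and 20.8 FPKM in mutants 1, 2 and 3, against 23.4, 24.9 and 23.1 FPKM in controls 1, 2 and 3. Mutant 2 stood lowest and the 3 controls lay close together. The limma log2 change of Kcnn4 was -0.35 ± 0.14 (SE; 95% interval -0.67 to -0.03), with an adjusted p of 0.999, and of 0.600 with the replicate block.

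Kcnn3 encodes the small-conductance channel SK3, known in gut from PDGFRA-positive interstitial cells and neurons, and lies at chr3:89324086-89476416. Kcnn3 had 0.469, 0.538 and 0.896 FPKM in mutants 1, 2 and 3, against 0.967, 0.991 and 1.07 FPKM in controls 1, 2 and 3. Mutants 1 and 2 lay well below the controls and mutant 3 just below them. Its limma log2 change was -0.43 ± 0.18 (SE), with an adjusted p of 0.999. Kcnma1, the pore of the large-conductance BK channel of smooth muscle, neurons and colon epithelium, had 0.738, 0.524 and 0.880 FPKM in mutants 1, 2 and 3, against 0.920, 0.933 and 1.08 FPKM in controls 1, 2 and 3. Its log2 change was -0.29 ± 0.16 (SE). The class sum was 21.4, 16.2 and 22.5 FPKM in mutants 1, 2 and 3, against 25.3, 26.8 and 25.2 FPKM in controls 1, 2 and 3, nearly all of it Kcnn4.

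Inward rectifiers pass potassium most easily near the resting potential, and 3 of 15 gene models reached the minimum. Kcnj8, the pore Kir6.1 of the ATP-sensitive channel of smooth muscle and pericytes, had 4.11, 2.89 and 3.88 FPKM in mutants 1, 2 and 3, against 4.14, 4.18 and 5.09 FPKM in controls 1, 2 and 3. The groups did not overlap, but mutant 1 and control 1 differed little, and the log2 change was -0.28 ± 0.16 (SE). Its partner Abcc9, the sulfonylurea receptor SUR2, had 2.38, 2.48 and 4.03 FPKM in mutants and 3.10, 3.03 and 4.94 FPKM in controls, which overlapped. Kcnj2 (Kir2.1, a stabiliser of the resting potential) and Kcnj10 (Kir4.1, the potassium-buffering channel of glia) had log2 changes of -0.02 and -0.14 and overlapped. Kcnj11, the Kir6.2 pore of the islet and endocrine ATP-sensitive channel, stayed below the minimum, with 0.400, 0.357 and 0.121 FPKM in mutants and 0.237, 0.263 and 0.228 FPKM in controls.

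Among voltage-gated potassium channels, 7 of 40 gene models reached the minimum, most of them near it. Kcnq1, the pore that pairs with Kcne3 in the basolateral membrane of secreting gut epithelium, had 24.9, 22.1 and 25.6 FPKM in mutants 1, 2 and 3, against 24.2, 24.4 and 20.3 FPKM in controls 1, 2 and 3. The values interleaved, and the log2 change was 0.08 ± 0.11 (SE; 95% interval -0.19 to 0.34). Kcnh2 (ERG1, a repolarising channel of heart and gut muscle) averaged 1.63 FPKM in mutants and 1.96 FPKM in controls without overlap, with a log2 change of -0.21 ± 0.13 (SE). Kcns3 (a silent subunit that modifies Kv2 channels) and Kcnf1 (another silent subunit) had log2 changes of -0.03 and -0.13 and overlapped.

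Kcnb2, the Kv2.2 delayed rectifier and a gene used to label the set, did not reach the minimum in any library. Kcnb2 had 0.0184, 0.0741 and 0.0281 FPKM in mutants 1, 2 and 3, against 0.0672, 0.117 and 0.0457 FPKM in controls 1, 2 and 3. These values are 2, 9 and 3 rebuilt fragments in mutants and 9, 13 and 5 in controls, and the groups overlapped.

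Of the potassium channel auxiliary subunits, 7 of 17 gene models reached the minimum, and Kcne3 had the highest level of all 37 genes. Kcne3 encodes a single-span subunit that holds KCNQ1 open, at chr7:107325180-107333379 (mm9). Kcne3 had 74.0, 73.5 and 77.4 FPKM in mutants 1, 2 and 3, against 66.7, 79.8 and 74.3 FPKM in controls 1, 2 and 3. The mutants lay within the range of the controls. The log2 change of Kcne3 was 0.03 ± 0.11 (SE; 95% interval -0.22 to 0.28).

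Kcnip2 encodes KChIP2, a calcium-binding subunit of Kv4 channels that is essential for the transient outward current of the heart, at chr19:45868160-45890293. Kcnip2 had 4.45, 4.58 and 7.46 FPKM in mutants 1, 2 and 3, against 3.11, 2.45 and 3.69 FPKM in controls 1, 2 and 3. All mutants lay above all controls, and the library numbered 3 was highest in both groups. The mean was 5.50 ± 1.70 FPKM in mutants and 3.08 ± 0.621 FPKM in controls (SD, n = 3 each), and rebuilt fragments were 50.1, 55 and 74 in mutants and 41, 25 and 40 in controls. Its limma log2 change was 0.72 ± 0.22 (SE; 95% interval 0.20 to 1.24), higher in 3 of 3 mutants, with an adjusted p of 0.999, and of 0.206 with the replicate block. By isoform, NM_145704 of 663 bases had 1.95, 2.74 and 6.06 FPKM in mutants and 1.93, 2.02 and 1.86 FPKM in controls, so the mutant 3 value stood apart. The isoform NM_145703 held 42.1, 23.0 and 4.53% of the gene's FPKM in mutants and 23.6, 0.000322 and 10.8% in controls. The split between isoforms varied between libraries, so no difference is read from them.

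The remaining potassium channel auxiliary subunits overlapped between groups. Kcnip3 (DREAM, a calcium sensor related to KChIP2) had 0.577, 0.720 and 0.824 FPKM in mutants and 0.658, 0.406 and 0.464 FPKM in controls, with a log2 change of 0.26 ± 0.17 (SE). Kcne4 (an inhibitor of KCNQ1) had a log2 change of -0.25, and Kcnab2 (a cytoplasmic beta subunit of Kv1 channels, which shares 125 exon bases with Gm16334 on its own strand) of -0.16. The BK subunits Kcnmb1, of smooth muscle, and Kcnmb4, of neurons, had -0.11 and -0.21. Kcnmb4 shares exon bases with 4933400F03Rik (693 bases) and 1700058G18Rik (355 bases), and the authors' counting is not stated to use strand, so its value and those of other genes with shared exon bases are uncertain.

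Of the calcium channel pore subunits, 3 of 10 gene models reached the minimum, and none separated the groups. Cacna1h encodes the T-type channel Cav3.2, which opens at low voltage. Cacna1h had 0.918, 0.700 and 2.57 FPKM in mutants 1, 2 and 3, against 1.81, 1.81 and 2.78 FPKM in controls 1, 2 and 3. Mutants 1 and 2 lay below every control, while mutant 3 lay between control 3 and the others. Its log2 change was -0.58 ± 0.36 (SE; 95% interval -1.44 to 0.28), a wide interval that includes 0. It shares 158 exon bases with the antisense gene Tpsg1.

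Cacna1a, the P/Q-type pore Cav2.1 of nerve terminals and endocrine cells and a gene used to label the set, lies at chr8:86939263-87164148. Cacna1a had 0.590, 0.527 and 0.501 FPKM in mutants 1, 2 and 3, against 0.666, 0.874 and 0.339 FPKM in controls 1, 2 and 3. All mutants lay inside the range of the controls, and the log2 change was -0.09 ± 0.20 (SE; 95% interval -0.57 to 0.39). It shares 435 exon bases with the antisense transcript Gm16183. Cacna1d, the L-type pore Cav1.3 of endocrine and pacemaker cells, had 0.695, 0.665 and 0.662 FPKM in mutants 1, 2 and 3, against 0.548, 0.407 and 0.693 FPKM in controls 1, 2 and 3. Control 3 lay between the mutant values, the log2 change was 0.17 ± 0.16 (SE), and 518 exon bases are shared with Chdh on the other strand.

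Of the calcium channel auxiliary subunits, 5 of 16 gene models reached the minimum. Cacna2d1 encodes the alpha2delta-1 subunit, the target of gabapentin, which carries pores to the membrane. Cacna2d1 had 1.08, 1.19 and 1.40 FPKM in mutants 1, 2 and 3, against 1.40, 1.61 and 1.76 FPKM in controls 1, 2 and 3. The groups missed overlapping by less than the digits printed, with a log2 change of -0.28 ± 0.15 (SE). Cacnb3, the cytoplasmic beta subunit with the highest level of this class, averaged 5.33 FPKM in mutants and 5.07 FPKM in controls. Cacng7, Cacnb1 and Cacnb2 had log2 changes of -0.01, -0.20 and -0.06 and overlapped. Cacnb1 shares 80 exon bases with Gm11629, and Cacnb2 shares 253 with Gm10849 and 236 with Gm13269, all on the other strand.

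Of the sodium channel pore subunits, 1 of 10 gene models reached the minimum. This was Scn7a, the atypical channel Nax that senses extracellular sodium and is known from glia. Scn7a had 1.02, 1.00 and 1.12 FPKM in mutants 1, 2 and 3, against 1.11, 1.96 and 1.58 FPKM in controls 1, 2 and 3. Mutant 3 and control 1 nearly coincided, and the log2 change was -0.39 ± 0.18 (SE; 95% interval -0.81 to 0.04). The auxiliary subunit Scn2b, an adhesion-type partner of the pores, had 1.03, 0.598 and 0.373 FPKM in mutants 1, 2 and 3, against 0.315, 0.706 and 0.429 FPKM in controls 1, 2 and 3. The values interleaved, with a log2 change of 0.23 ± 0.25 (SE).

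The authors' deposited table lists all 37 genes, and 36 of them have an adjusted p of 1 there, against 0.14% of its 18605 genes with an adjusted p under 0.05. It gives 4 of the 37 an unadjusted p under 0.05 (2.16% of its genes): Kcnk16, Kcnn3, Scn7a and Kcnip2. The log2 fold changes of the authors' deposited table were -0.64 for Kcnn3, -0.53 for Scn7a and 0.71 for Kcnip2. Kcnn4, at an unadjusted limma p of 0.0341 in the FPKM, has a p of 0.101 in the authors' deposited table.

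Of 85 isoforms of the 37 genes, 42 reached the minimum and none passed an adjusted p of 0.05 in limma, against 0.00617% of 16213 isoforms, or 0.0185% with the block. At an unadjusted limma p under 0.05 there were 2, against 3.79% of all isoforms. For nearly identical isoforms the assignment moved between libraries: Cacna1h was placed on NM_001163691 in mutant 1 and on NM_021415 in the other 5 libraries. Such isoforms are among the 42 tested, and no difference is read from them.

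Below the minimum lay 98 genes, 9 of them listed at 0 in all 6 libraries and 8 that reached 0.5 FPKM in 1 or 2 libraries. None of the 98 lay higher in every mutant than in any control, and 9 lay lower, among them Kcnj5, Scn3a, Kcnn1, Kcna6, Kcnq5, Kcnc1, Scn11a and Kcnc2. Over the 126 matched genes above 0, with no minimum, 16 lay lower (12.7%) and 2 higher, against 3.99% lower and 4.11% higher among 18816 genes. Of the genes below the minimum, the 2 named next were chosen after their values were seen.

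Scn3a encodes the sodium channel pore Nav1.3, known from neurons and endocrine cells. Scn3a had 0.116, 0.111 and 0.122 FPKM in mutants 1, 2 and 3, against 0.318, 0.299 and 0.244 FPKM in controls 1, 2 and 3. The mutants lay close together and well below the controls, on 23, 24.7 and 24 rebuilt fragments in mutants and 78, 61 and 49 in controls. The limma fit with no minimum gave a log2 change of -0.35 with an adjusted p of 0.568, and 0.00531% of all genes passed the threshold in that fit. Kcnc2 (Kv3.2, of fast-firing neurons) had 2, 3 and 1 rebuilt fragments in mutants 1, 2 and 3 and 10, 9 and 9 in controls 1, 2 and 3. In the same limma fit its adjusted p was 0.995.

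**Figure D4:**
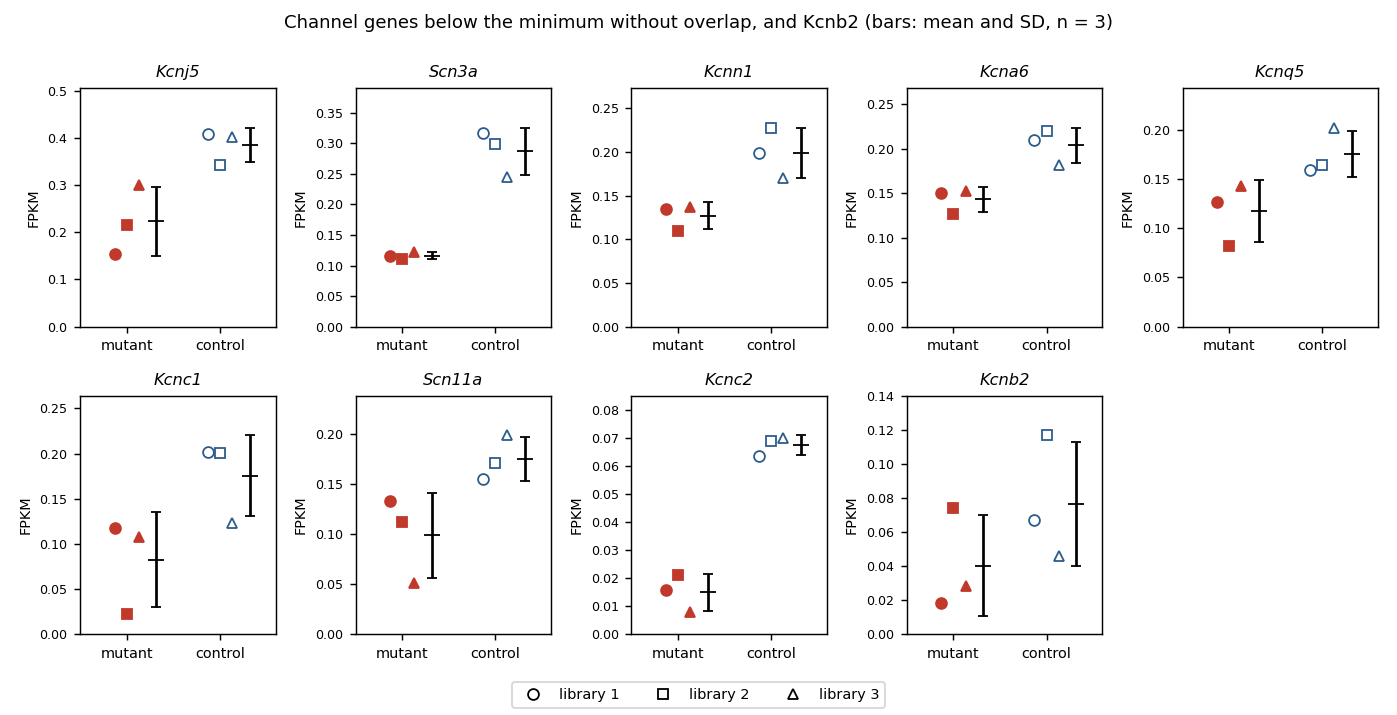
FPKM per library of 8 channel genes below the minimum whose groups do not overlap, and of Kcnb2, with mutants left and controls right, 1 symbol per library number and bars for mean and SD (n = 3). In these 8 panels the 3 mutants lie below the 3 controls, at levels under 0.5 FPKM; in the Kcnb2 panel they overlap.

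Several marker lists also differed between the groups, and their part in the channel differences was not tested. Of 11 enteric neuron markers tested, all 11 had negative log2 changes and 5 lay lower without overlap, against 55.8% and 3.71% of all genes tested. Their summed level was 31.7 to 36.2 FPKM in mutants and 41.9 to 52.7 FPKM in controls. Much of that gap came from a single gene, Vip, and without it the sums of mutant 1 and control 1 nearly coincide. Vip, a neuropeptide, had 11.7, 10.9 and 12.2 FPKM in mutants and 17.4, 22.3 and 25.4 FPKM in controls, and it passed limma with the block (adjusted p = 0.0440) but not without it (0.368). Smooth muscle markers summed to 548 to 791 FPKM in mutants and 503 to 997 FPKM in controls, and interstitial cell of Cajal markers to 6.33 to 7.63 FPKM in mutants and 6.77 to 9.13 FPKM in controls. Both overlapped, as did fibroblast markers, with 145 to 227 FPKM in mutants and 166 to 259 FPKM in controls. Enteric glia markers overlapped too, with 2.93 to 4.27 FPKM in mutants and 3.56 to 4.81 FPKM in controls. Of the 5 glia markers tested, 4 had negative log2 changes and 0 lay apart without overlap.

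Beside Kcnk16, enteroendocrine markers summed to 85.0 to 141 FPKM in mutants and 148 to 222 FPKM in controls, lower in every mutant. Of 11 enteroendocrine hormone genes, 7 had negative log2 changes, 6 were lower and 1 was higher without overlap, and the median was -0.89. Over all genes tested these shares were 55.8%, 3.71% and 4.05%. Their sum was nevertheless 789 to 1542 FPKM in mutants and 432 to 570 FPKM in controls, most of it in mutants from a single gene. That gene, Ghrl (ghrelin), had 1320, 1360 and 644 FPKM in mutants 1, 2 and 3, against 82.4, 70.8 and 58.6 FPKM in controls 1, 2 and 3 (limma adjusted p = 0.0276, and 0.000174 with the block). Enterochromaffin markers summed to 94.4 to 158 FPKM in mutants and 194 to 212 FPKM in controls. Of the 7 tested, 5 lay lower without overlap, against 3.71% of all genes tested, and the median log2 change was -1.58. These 7 include Trpa1, which reached the minimum in the 3 controls and in no mutant, and whose own log2 change was -1.58. Because Trpa1 entered only through the group where it is high, no conclusion is drawn from this count and median. Past the threshold was 1 gene, the neuropeptide gene Tac1, lower in mutants (limma adjusted p = 0.0491). Tuft cell markers summed to 28.1 to 104 FPKM in mutants and 23.3 to 28.8 FPKM in controls, and mast cell markers to 17.6 to 38.8 FPKM in mutants and 6.03 to 10.6 FPKM in controls. In Kcnk16, Ghrl and the tuft markers mutant 3 was the lowest mutant, but this was not particular to them. Mutant 3 was also lowest in Nkx2-2 and in the enteroendocrine, enterochromaffin, absorptive enterocyte, exocrine pancreas, and Brunner gland and stomach sums. In the smooth muscle and fibroblast sums it was the highest mutant. Islet markers summed to 95.4 to 97.6 FPKM in mutants and 106 to 110 FPKM in controls, lower in every mutant, and 5 of the 10 were tested. Of these 5, 2 had positive and 3 negative log2 changes, and 1 lay lower without overlap. Over all genes tested, 55.8% were negative and 3.71% lay lower. Iapp and Gcg stand on both the islet and the hormone lists, so this sum does not measure islet cells alone. The islet genes Slc30a8, G6pc2 and Nkx6-1, which were not among the 5 tested, were at 0 in all 3 mutants. They were at most 0.0271, 0.0423 and 0.0290 FPKM in controls, so these genes were near 0 in both groups. They are 3 of the 10 listed genes and do not stand for the list, whose sum was well above 0 in every library. Exocrine pancreas markers summed to 3308 to 14641 FPKM in mutants and 15168 to 24768 FPKM in controls.

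The textbook sites of expression of the channels gave 4 overlapping groups. Of channels known from neurons and glia, 5 of 28 were tested, all 5 with negative log2 changes, with a median of -0.21 and 2 lower without overlap. Among all genes tested, 55.8% were negative, 3.71% lay lower and 4.05% higher without overlap. Among the 37 channel genes themselves, 67.6% were negative, 18.9% lay lower and 5.41% higher without overlap. The same shares stand against the counts that follow. Of those known from smooth muscle and interstitial cells, 8 of 15 were tested, 6 of them negative, with a median of -0.19 and 3 lower without overlap. Of those known from endocrine cells, 10 of 22 were tested, 6 of them negative, with a median of -0.07. Without overlap, 1 was higher (Kcnk16) and 2 were lower (Kcnh2 and Kcnma1), the latter 2 also known from muscle. Of those known from transporting epithelium, 7 of 12 were tested, 4 of them negative, with a median of -0.09 and 2 lower without overlap, Kcnn4 and Kcnma1.

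Other genes of excitability and ion transport were read from the same fit, and none of 4 lists had a gene past the adjusted threshold in either direction. Partners of the channels had 14 of 23 genes tested and a median log2 change of -0.08. Ank2 (ankyrin-B, an anchor of membrane channels) had -0.18 and Fgf13 (a modulator of sodium channels) -0.19. Other cation channels had 22 of 58 listed genes tested and a median of -0.01. Among these, Trpa1, the irritant receptor of enterochromaffin cells, had 0.359, 0.228 and 0.330 FPKM in mutants 1, 2 and 3, against 2.31, 2.66 and 1.05 FPKM in controls 1, 2 and 3. All mutants lay below all controls, with a limma log2 change of -1.58 and an adjusted p of 0.368, or 0.0815 with the block. Trpa1 reached the minimum in the 3 controls and in no mutant, so it entered the fit only through the group where it is high. Trpm5, the taste-type cation channel of tuft cells, had 11.0, 12.0 and 2.98 FPKM in mutants and 1.71, 2.14 and 3.45 FPKM in controls, and mutant 3 lay below control 3. Calcium release and store entry genes had 14 of 25 tested and a median of 0.04, with Stim2 (a calcium sensor of the endoplasmic reticulum) at 0.26 and Orai2 (a store-operated pore) at -0.35. Sodium pump and chloride channel genes had 25 of 34 tested and a median of -0.03, with Ano1 (the calcium-activated chloride channel of interstitial cells of Cajal) at -0.54.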

How the data were processed

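RNA had been extracted from duodenum and made into libraries with a TruSeq kit, per the labels' protocols. The authors used mm9 with CASAVA 1.8.2, DESeq, TopHat and Cufflinks, per the submitters' processing notes. The authors deposited FPKM per gene and isoform with Cufflinks intervals, per the file headers, and isoform coverage. The authors' deposited table of the genotype comparison holds a normalized count signal averaged per group, a fold change and its log2, and raw and adjusted p-values. Options and strand are not given in the sources used here.

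The test was limma 3.58.1 (trend, robust; statmod 1.5.0) in R 4.3.3 on log2(FPKM + 0.5), two-sided, over 13596 genes with at least 0.5 FPKM in at least 3 libraries. P-values were adjusted by Benjamini-Hochberg over all of these genes, and 0.05 was the threshold. The pseudocount makes fold changes of low genes too small. Depth and fragments per gene were rebuilt from the Cufflinks intervals, and 91.8 to 93.0% of 2879 to 3039 low values per library lay within 0.1 of a whole fragment. The fit was tested on simulated data. Python 3.11.15, pandas 2.3.3, numpy 2.4.6 and matplotlib 3.10.9 made summaries and plots. Coordinates are 1-based mm9 from the files unless GRCm38.p6 is named.

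Samples were grouped by title. Samples with the same number deviated together (correlations 0.26, 0.25 and 0.58 for numbers 1, 2 and 3), and were treated as pairs in the block. The pairing rests on the data, because no label explains the numbers. The correlation was 0.30 for mutant 2 with control 1 and 0.19 for mutant 1 with control 2, so numbers 1 and 2 were not told apart. Only number 3 stood out, with correlations of -0.43 to -0.32 with the other numbers. Alternatives were the replicate block, pseudocounts of 0.1 and 1, other minimums, scalings, library weights, limma-voom on rebuilt fragments and leaving out each library.

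Members and lists were chosen with earlier results of these data known. Genes are named by a rule: Kcnk16, Cacna1a and Kcnb2; members with an unadjusted p under 0.05 or past the threshold with the block; per role the 3 highest and the 2 most different members; and the 2 smallest p-values of each list. A few genes that the rule names are not reported here or drawn, but stay in the counts. Other names serve to complete a count or a class.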

Additional observations from a re-analysis of the deposited data

How the results depend on the processing

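Leaving out each library gave 0 to 63 genes past the threshold over all genes, against 3 with all 6; the highest count came without mutant 3, with 9 without mutant 1, 1 without control 3 and 0 without control 1 or 2. No minimum and upper quartile scaling each gave 1 gene, library weights 19, the replicate block 22, and leaving out gene models under 200 bases or limma-voom 0. Among the channel genes, 0 passed with all libraries (4 at an unadjusted p under 0.05) and 0 in limma-voom, and 1, Kcnk16, passed with library weights, with the replicate block and without mutant 3, so leaving out a library gave 0 to 1. Its log2 change was 1.98 with weights and 1.85 with the block; leaving out a library gave 1.63 to 2.07, and 16 settings gave 1.45 to 2.70. No other channel gene passed in any of the 16 settings. Channel genes without overlap numbered 9 to 16 when a library was left out, against 9 with all 6. Over all genes tested the share without overlap rose too, from 7.75% with all 6 to 16.2% without control 1 and 32.1% without mutant 3. The sign of the log2 change turned in at least 1 setting for 13 channel genes, none with a size above 0.20 with all libraries, and 10 values other than that of Kcnk16 moved by more than the replicate SD. The causes were not tested. The block changed no other channel call. Kcnk16 rests on 4 to 12 fragments in controls, and 3 libraries per group limit what can be called. Without control 2, or with a minimum of 1 FPKM, Kcnk16 entered the fit only through the mutants.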

Other observations

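Scn8a, the sodium channel pore Nav1.6 of axons, was chosen after its values were seen. It had 0.0171, 0.0274 and 0.546 FPKM in mutants 1, 2 and 3, against 0.0216, 0.0222 and 0.508 FPKM in controls 1, 2 and 3. The libraries numbered 3 stood far above the other 4 in both genotypes. Cacna1c, the L-type calcium channel pore of smooth muscle, had 0.326, 0.447 and 0.764 FPKM in mutants 1, 2 and 3, against 0.345, 0.428 and 0.744 FPKM in controls 1, 2 and 3, and here too number 3 was highest in both groups.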
